A study of Mus musculus with 4 samples.

Results

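Interferon response and antigen presentation genes were examined in 3T3-L1 cells, a mouse embryonic fibroblast line that can form adipocytes in culture, after exposure to risperidone, an atypical antipsychotic. The members were 37 genes chosen by name, and all 37 were found among the 16051 genes of the deposited table. They comprised 4 interferon receptor chains, 6 transcription factors, 20 interferon-induced effectors and 7 genes of the MHC class I pathway. Per the study's methods, differentiated cells were exposed for 48 h to DMSO, the vehicle, or to risperidone, for which a concentration of 100 μM was used in vitro. The labels give the strain of all cells as NIH SWISS and call the control cells untreated, and the name DMSO from the study's methods is used here. Each treatment had 2 libraries, each made from 3 pooled cultures, and the p-values therefore measure only how far pooled libraries differ and not how far cultures do. The libraries held between 15883712 and 16374119 estimated read counts. Values are FPKM, a level scaled to transcript length and sequencing depth, and libraries are given in the order DMSO replicates 1 and 2, then risperidone replicates 1 and 2.

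The labelled cell type was checked against marker genes. Of 9 adipocyte markers in the table, 6 (Adipoq, Plin1, Cebpa, Cidec, Retn and Cfd) had at most 15 counts in every library, while Fabp4, Pparg and Lipe were above the limit for testing. Fabp4 was at 130.09, 168.66, 59.51 and 71.18 FPKM and Lipe at 7.88, 7.23, 3.24 and 3.17 FPKM, and both were lower after risperidone (log2 fold change -1.09 and -1.12). Pparg, at 12.51, 11.41, 12.78 and 12.47 FPKM, was not called. Adipoq, a defining marker of mature adipocytes, had 1, 0, 1 and 1 counts, and the preadipocyte marker Dlk1 was at 30.38, 32.85, 81.70 and 83.28 FPKM. Adipoq and Dlk1 thus went against the description of the cells as differentiated, while Fabp4, Pparg and Lipe were expressed, so the markers did not settle it. The study itself reports Oil Red O staining of differentiated 3T3-L1 cells. The summed level of the adipocyte markers was 108 and 123 CPM with DMSO and 65.5 and 70.9 CPM with risperidone, and that of 8 fibroblast or preadipocyte markers was 8070 and 7814 CPM with DMSO and 9409 and 9290 CPM with risperidone. The latter markers did not move together, since Dlk1, Thy1 and Col1a1 (log2 fold change 0.99) were higher and Col3a1 (-0.96), Pdgfrb (-0.50) and Col1a2 (-0.16) were lower. Leukocytes are rich in many of the genes examined here. Of 8 leukocyte markers in the table, 6 had at most 15 counts in every library, among them the defining marker Ptprc with 0, 0, 1 and 3 counts. The summed level of all 8 lay between 22.04 and 25.55 CPM, nearly all of it from Cd68, which rose (48, 62, 115 and 120 counts), and Cd14, which fell (316, 344, 248 and 237 counts), and the part of such cells in the results was not tested. The labels also mention retina, and 3 of the 4 retina markers in the table had at most 15 counts in every library. Risperidone replicate 2 stood apart in its kidney genes, whose 12 markers summed to 228 CPM there and to between 4.34 and 6.16 CPM in the other libraries. Its 5 endothelial markers summed to 2.77 CPM, against 0.702 to 0.852 CPM in the others, with at most 15 counts each. Without this library 23 of the 24 called members described here kept their direction and call, the exception being Ifngr2, and values without it are given for several of them. In bulk RNA, fewer cells that express a gene and less RNA per cell cannot be told apart.

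As background, interferons bind receptors at the cell surface and activate JAK kinases and STAT factors. Type I interferon acts mainly through a complex that holds Stat2 and Irf9 and binds the interferon-stimulated response element, while interferon gamma acts mainly through the gamma-activated site. The genes switched on in this way restrict viruses and intracellular microbes, and they also raise the display of peptides on MHC class I molecules. Fibroblasts and adipocytes carry both receptor types and hold many of these genes at a low resting level.

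RefSeq promoter windows on GRCm38.p6, the build that the labels also name, were available for 31 of the 37 members, each window running from 250 bases before the transcript start to 50 bases after it. They were searched on both strands for the core of the response element, GAAANNGAAA, and for the core of the gamma-activated site, TTCNNNGAA, which reads the same on both strands. GAAANNGAAA was present in 13 of the 31 members, or 41.9%, against 3.99% of the 27025 genes with a window and 3.59% of the tested genes with one. By class it was found in 10 of 16 effectors, 2 of 6 transcription factors, 1 of 5 MHC class I genes and 0 of 4 receptors. Matches were present on both sides of the comparison, in 5 of the 14 members that were lower after risperidone, in 4 of the 7 that were higher and in 1 of the 6 that were not called. TTCNNNGAA was present in 8 of the 31 members, or 25.8%, in 9.55% of all genes with a window and in 7.98% of the tested genes with one. It was found in 4 of the 7 higher members, 2 of the 14 lower members and 1 of the 6 that were not called. A match describes letters in the window and is not a measured binding site. The windows of 7 members on which the results turn are printed here 5′ to 3′ on the strand of the gene, with the matches in capitals. They are Gbp2, the largest decrease (chr3:142620413-142620712, plus strand), Irf1, a transcription factor that fell (first window, chr11:53769764-53770063, plus strand), Bst2 (chr8:71537423-71537722, minus strand) and B2m (chr2:122147437-122147736, plus strand), which rose, and the linked genes Ifit2 (first window, chr19:34550444-34550743), Ifit3 (chr19:34583279-34583578) and Ifit1 (chr19:34640639-34640938), all on the plus strand, which did not change alike.
Gbp2: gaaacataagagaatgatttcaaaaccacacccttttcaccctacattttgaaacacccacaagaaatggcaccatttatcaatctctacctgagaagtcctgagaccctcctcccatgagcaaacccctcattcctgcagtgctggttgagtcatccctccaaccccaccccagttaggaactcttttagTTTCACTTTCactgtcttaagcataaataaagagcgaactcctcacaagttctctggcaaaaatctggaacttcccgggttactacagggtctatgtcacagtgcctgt
Irf1: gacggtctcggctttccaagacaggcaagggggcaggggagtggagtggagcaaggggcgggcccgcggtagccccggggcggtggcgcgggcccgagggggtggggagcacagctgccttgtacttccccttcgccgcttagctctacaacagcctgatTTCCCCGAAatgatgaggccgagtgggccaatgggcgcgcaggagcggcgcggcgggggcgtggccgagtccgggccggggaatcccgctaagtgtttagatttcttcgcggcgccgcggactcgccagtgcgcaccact
Bst2: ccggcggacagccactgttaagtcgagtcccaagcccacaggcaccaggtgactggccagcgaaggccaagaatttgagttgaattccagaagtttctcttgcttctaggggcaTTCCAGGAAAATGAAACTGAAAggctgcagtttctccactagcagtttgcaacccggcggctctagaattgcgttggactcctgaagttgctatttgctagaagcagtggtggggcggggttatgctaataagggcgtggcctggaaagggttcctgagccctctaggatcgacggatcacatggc
B2m: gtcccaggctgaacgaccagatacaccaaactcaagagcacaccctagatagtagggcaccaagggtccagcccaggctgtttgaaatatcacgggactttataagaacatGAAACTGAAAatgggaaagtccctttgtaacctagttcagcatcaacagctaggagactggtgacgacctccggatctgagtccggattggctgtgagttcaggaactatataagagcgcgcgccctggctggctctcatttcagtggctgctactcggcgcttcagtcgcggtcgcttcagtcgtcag
Ifit2: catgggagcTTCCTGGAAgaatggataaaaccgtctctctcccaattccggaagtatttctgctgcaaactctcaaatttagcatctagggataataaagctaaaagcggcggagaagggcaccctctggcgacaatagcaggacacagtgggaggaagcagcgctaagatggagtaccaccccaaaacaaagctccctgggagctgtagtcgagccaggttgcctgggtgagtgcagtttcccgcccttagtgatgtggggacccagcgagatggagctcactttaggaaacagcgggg
Ifit3: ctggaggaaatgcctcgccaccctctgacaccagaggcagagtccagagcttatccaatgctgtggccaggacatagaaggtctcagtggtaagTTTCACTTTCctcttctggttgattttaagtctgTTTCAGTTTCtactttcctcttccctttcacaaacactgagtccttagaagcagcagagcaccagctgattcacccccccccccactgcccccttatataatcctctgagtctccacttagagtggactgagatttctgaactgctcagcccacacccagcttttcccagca
Ifit1: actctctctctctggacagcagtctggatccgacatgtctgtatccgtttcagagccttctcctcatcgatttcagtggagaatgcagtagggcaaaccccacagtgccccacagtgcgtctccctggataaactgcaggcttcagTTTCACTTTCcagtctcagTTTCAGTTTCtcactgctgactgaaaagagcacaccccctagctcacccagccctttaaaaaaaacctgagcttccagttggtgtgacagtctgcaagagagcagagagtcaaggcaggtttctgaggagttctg

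In Gbp2 the single match to GAAANNGAAA, read on the opposite strand, began 59 bases before the start. Irf1 held TTCNNNGAA 90 bases before the start and no match to GAAANNGAAA. In Bst2, a match to TTCNNNGAA and 2 overlapping matches to GAAANNGAAA formed an unbroken stretch that began 136 bases before the start. Ifit3 and Ifit1 each held 2 matches to GAAANNGAAA on the opposite strand, whereas the first window of Ifit2 held only TTCNNNGAA and its second window neither motif.

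Counts were compared between risperidone and DMSO with edgeR's quasi-likelihood test over the 10243 genes whose mean level reached 1 FPKM, with Benjamini-Hochberg adjustment over all of them and a threshold of 0.05. Of the 37 members, 31 passed this limit, and 16 of these were lower, 8 were higher and 7 were not called. Over all genes tested, 64.3% were called, with 32.2% lower and 32.1% higher. A decrease of at least 1 on the log2 scale was found for 8 of the 31, against 3.91% of all genes tested, and an increase of that size for 1, against 2.61%. Of these 8, Irf7, Oasl2, Gbp3 and Parp14 reached 1 FPKM only with DMSO, so the limit itself favoured their decrease and the 8 give no support over the background. The median log2 fold change was -0.19 for the members and 0.00044 for all genes. With the stricter limit of a mean of 5 FPKM, which left 21 members, 9 were lower and 7 higher, beside 33.9% and 33.1% of all genes at that limit, and the members' median was -0.024. Since 5 of the 31 (Irf7, Ifit3, Oasl2, Gbp3 and Parp14) reached 1 FPKM in the mean of only 1 treatment, these counts describe the genes tested and not all members. Log2 fold changes carry TMM scaling and FPKM values do not, and scaling by library size alone moved the median of all genes to -0.09. On the TMM-scaled CPM the libraries of the treatments did not overlap for 26 of the 31, 17 lower and 9 higher, which compares with 82.9% of all genes tested, 41.7% lower and 41.2% higher. The balance of directions moved with the scaling, and limma on log2(TPM + 1) called 3 members higher and 20 lower, along with 1536 higher and 5292 lower genes overall.

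**Figure D1:**
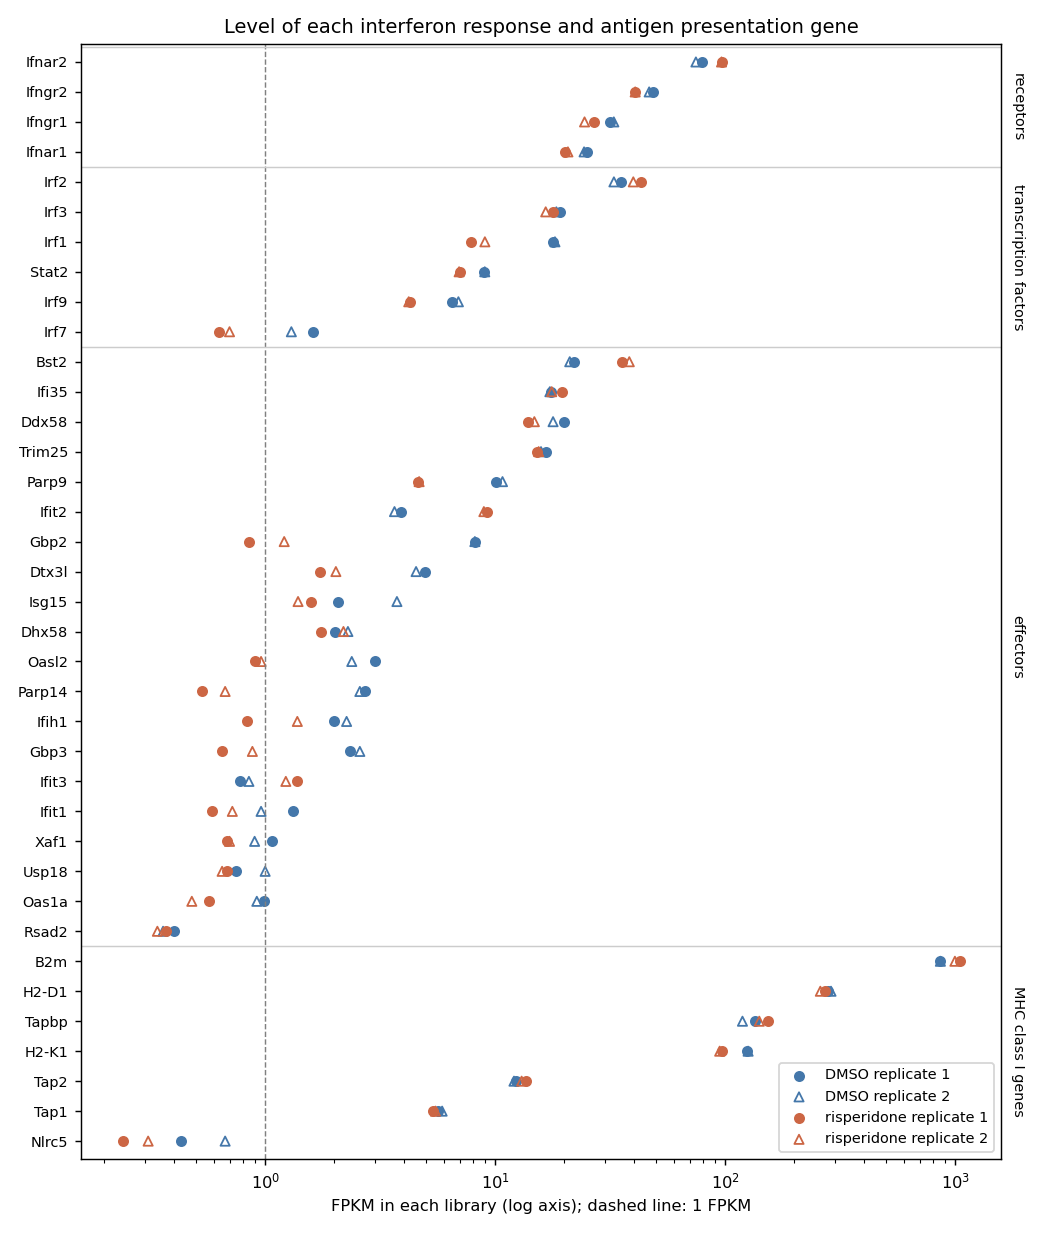
Level of each of the 37 members in each library in FPKM on a log axis, with DMSO in blue, risperidone in orange, replicate 1 as circles and replicate 2 as triangles. Gbp2 lies at 8.14 and 8.16 FPKM with DMSO and at 0.85 and 1.21 FPKM with risperidone, whereas B2m, at the top of the range, lies between 855 and 1044 FPKM in all 4 libraries.

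The receptor chains moved little and not in one direction. Ifnar2, a chain of the type I interferon receptor, was the most abundant of them and rose, while its partner Ifnar1 and both chains of the interferon gamma receptor fell by at most 0.23 on the log2 scale. Ifnar2 was at 79.31, 74.57, 96.94 and 96.37 FPKM. Both risperidone libraries lay above both DMSO libraries, and the log2 fold change was 0.37 (SE 0.0518, edgeR's adjusted p = 0.000101). Ifnar1 was at 25.06, 24.35, 20.20 and 20.71 FPKM, with a log2 fold change of -0.19 (SE 0.0468, edgeR's adjusted p = 0.00416). Its direction held with each library left out, but its adjusted p from edgeR was 0.0817 without DMSO replicate 1 and 0.0790 without DMSO replicate 2. Ifngr1, which binds the ligand interferon gamma, was at 31.66, 32.79, 26.82 and 24.46 FPKM, and its log2 fold change was -0.23 (SE 0.0698, edgeR's adjusted p = 0.0129). Ifngr2, the signalling partner of Ifngr1, went from 47.7 ± 1.46 to 40.6 ± 0.0212 FPKM (SD, n = 2), with a log2 fold change of -0.14. Its adjusted p from edgeR of 0.0488 lay at the threshold and ranged from 0.0501 to 0.377 with each library left out, so the call for Ifngr2 depended on every library. The genes Ifnar2, Ifnar1 and Ifngr2 lie in this order on chromosome 16, 79.4 kb and 36.5 kb apart, and Ifnar2 moved against the other two. In order of mean level, Ifnar2 (86.8 FPKM) was followed by Ifngr2 (44.2 FPKM), Ifngr1 (28.9 FPKM) and Ifnar1 (22.6 FPKM), and the libraries of Ifngr1 and Ifnar1 overlapped over the 4 libraries but not within a treatment.

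Among the transcription factors, Irf1, Irf7, Irf9 and Stat2 fell and Irf2 rose. Irf1, which interferon gamma induces and which activates many of the effector and MHC class I genes, was at 17.80 and 18.19 FPKM with DMSO and at 7.82 and 9.02 FPKM with risperidone. The treatments were far apart relative to the replicates, with a log2 fold change of -1.0 (SE 0.0779, edgeR's adjusted p = 1.26e-06) and values between -1.11 and -0.90 with each library left out. Irf2, which binds the same elements as Irf1 and can repress them, was at 35.30, 32.82, 43.19 and 39.85 FPKM and had a log2 fold change of 0.38 (SE 0.0627, edgeR's adjusted p = 0.000292), or 0.14 with an adjusted p of 0.0694 from limma on log2(TPM + 1), which is 0.36 relative to the median of all genes on that scale. The mean level of Irf2 was therefore above that of Irf1 with both treatments, at 34.1 against 18.0 FPKM with DMSO and 41.5 against 8.42 FPKM with risperidone. Stat2 and Irf9 encode parts of the complex through which type I interferon acts. Irf9 was at 6.50, 6.92, 4.28 and 4.21 FPKM, a log2 fold change of -0.61 (SE 0.119, edgeR's adjusted p = 0.00105). Stat2 changed less, from 8.94 and 9.01 FPKM to 7.02 and 6.97 FPKM, with a log2 fold change of -0.25 (SE 0.0582, edgeR's adjusted p = 0.00306, DESeq2's adjusted p = 0.0716). Irf7, which amplifies the production of type I interferon, was the least abundant of the factors, with 44, 35, 17 and 19 counts. Its log2 fold change was -1.03 (SE 0.289, edgeR's adjusted p = 0.00878), which was -0.88 with an adjusted p of 0.0746 without DMSO replicate 1, and DESeq2 gave an adjusted p of 0.0715. Irf3, which is activated by phosphorylation after viral RNA or DNA is sensed, was at 19.11, 18.45, 17.81 and 16.58 FPKM. Its difference was not called, with a log2 fold change of -0.06, a 95% interval from -0.21 to 0.09 and a value of 0.0046 without risperidone replicate 2.

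**Figure D2:**
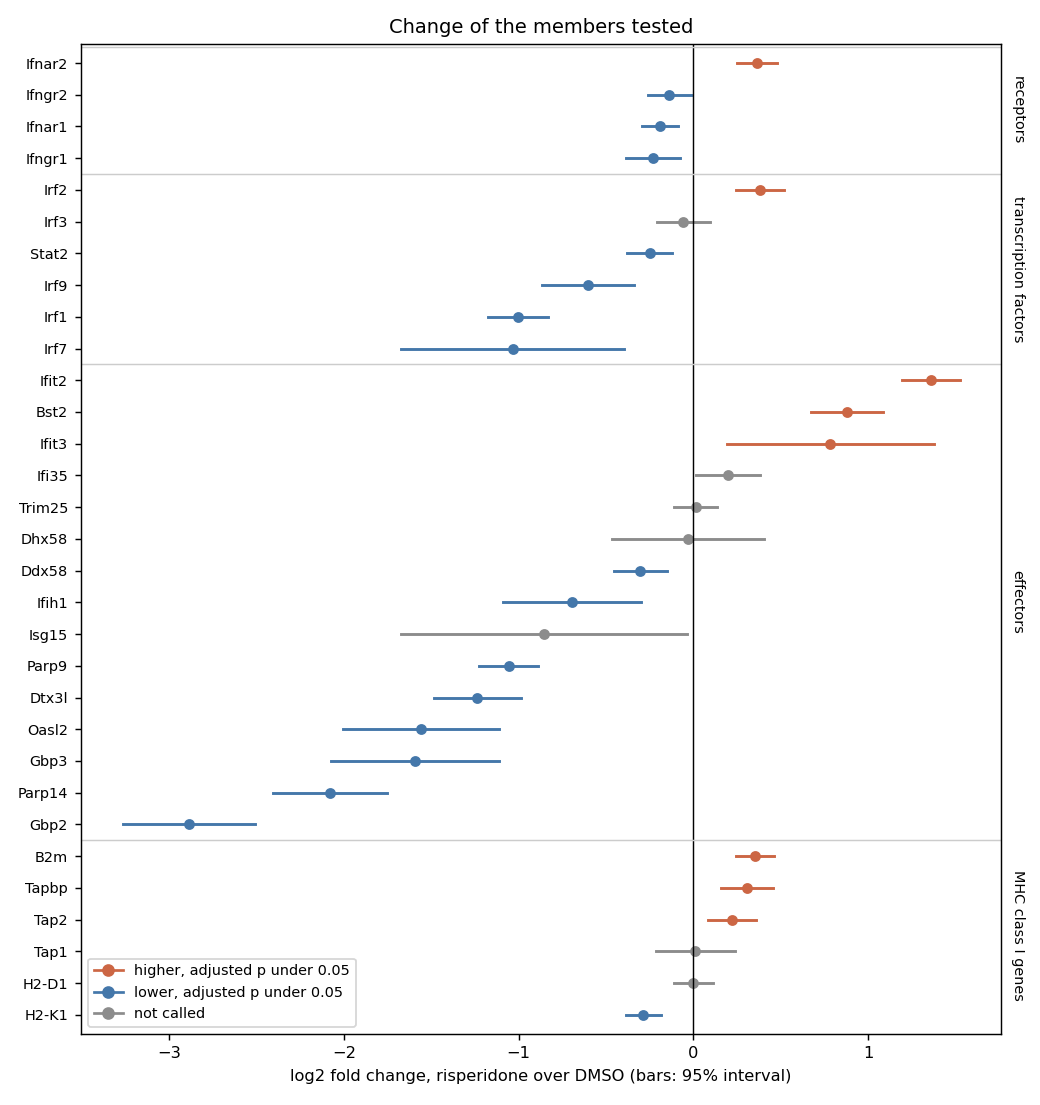
Log2 fold change of risperidone over DMSO for the 31 members tested, by class, with bars for the 95% interval from edgeR's test over 2 libraries per treatment. The effectors span the range from Gbp2 at -2.89 to Ifit2 at 1.36, while the receptors and MHC class I genes lie between -0.29 and 0.37.

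The effectors held both the largest decreases and the largest increases. Of 20 effectors, 15 were tested, and 8 were lower, 3 were higher and 4 were not called, with a median log2 fold change of -0.69. Over all genes tested, 32.2% were lower and 32.1% higher, and 4 of the 15 reached the limit in only 1 treatment. The decreases included the guanylate-binding proteins Gbp2 and Gbp3, the ADP-ribosylation genes Parp9, Parp14 and Dtx3l, the oligoadenylate synthetase-like gene Oasl2, and the RNA sensors Ifih1 and Ddx58. The increases were those of Ifit2, Ifit3 and Bst2.

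Gbp2 and Gbp3 encode interferon-inducible GTPases that act against intracellular microbes, and they lie 47.4 kb apart on chromosome 3 (Gbp3 at chr3:142560016-142573213, Gbp2 at chr3:142620663-142638008). Gbp2 (NCBI Gene 14469) had 309 and 301 counts with DMSO and 32 and 45 counts with risperidone, or 8.15 ± 0.0141 and 1.03 ± 0.255 FPKM (SD, n = 2). This was a 7.40-fold decrease (log2 fold change -2.89, SE 0.172, edgeR's adjusted p = 2.06e-07), and only 9 of the 10243 genes tested had a lower log2 fold change. Gbp3 was at 2.33, 2.58, 0.65 and 0.88 FPKM, a log2 fold change of -1.59 (SE 0.217, edgeR's adjusted p = 7.75e-05). Both decreases were larger without risperidone replicate 2, at -3.16 for Gbp2 and -1.80 for Gbp3.

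Parp9 and Dtx3l encode the parts of a complex with ubiquitin ligase and ADP-ribosylation activity, and Parp14 encodes an enzyme that attaches single ADP-ribose units. The 3 genes form a cluster on chromosome 16, where Dtx3l (chr16:35926515-35939027) and Parp9 (chr16:35938470-35972621) overlap by 558 bases and Parp14 lies 55.0 kb away. Parp14 (NCBI Gene 547253) fell from 322 and 297 counts to 61 and 76 counts, or from 2.66 ± 0.106 to 0.600 ± 0.0990 FPKM (SD, n = 2), a log2 fold change of -2.08 (SE 0.147, edgeR's adjusted p = 6.54e-07). Parp9 was at 10.12, 10.76, 4.60 and 4.67 FPKM, with a log2 fold change of -1.06 (SE 0.0758, edgeR's adjusted p = 7.23e-07). Dtx3l was at 4.97, 4.53, 1.74 and 2.03 FPKM, with a log2 fold change of -1.24 (SE 0.113, edgeR's adjusted p = 4.23e-06). The deposited counts of Parp9 and Dtx3l were not whole in 2 libraries, so some reads had been divided between genes. Summed into a single value, a comparison chosen after the data were seen, the pair had 924, 884, 377 and 396 counts and a log2 fold change of -1.13 (SE 0.0599, edgeR's adjusted p = 1.03e-07).

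Oasl2, a relative of the enzymes that make oligoadenylates in response to double-stranded RNA, was at 3.00, 2.38, 0.90 and 0.96 FPKM, and its log2 fold change was -1.56 (SE 0.202, edgeR's adjusted p = 5.25e-05). The RNA sensors did not all change. Ddx58, which encodes the sensor RIG-I, was the most abundant at 19.98, 17.85, 13.92 and 14.80 FPKM and had a log2 fold change of -0.30 (SE 0.0688, edgeR's adjusted p = 0.00259), or -0.22 with an adjusted p of 0.0613 without DMSO replicate 1. Ifih1, which encodes a sensor of long double-stranded RNA, was at 2.0, 2.26, 0.83 and 1.38 FPKM, a log2 fold change of -0.69 (SE 0.179, edgeR's adjusted p = 0.00568). Its risperidone libraries differed from each other, and the value was -0.49 without risperidone replicate 1 and -0.94 without risperidone replicate 2. Dhx58, the regulatory relative of these sensors, was at 2.01, 2.29, 1.75 and 2.19 FPKM. The libraries of the treatments overlapped for Dhx58, and its log2 fold change was -0.03 with a 95% interval from -0.46 to 0.40, or 0.065 without DMSO replicate 2 and 0.12 without risperidone replicate 1.

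Ifit2, Ifit3 and Ifit1, whose products bind foreign RNA and block its translation, lie in that order on chromosome 19, with gaps of 6.58 kb and 51.9 kb. Ifit2 (NCBI Gene 15958) had 243 and 223 counts with DMSO and 574 and 547 counts with risperidone, or 3.77 ± 0.163 and 9.08 ± 0.205 FPKM (SD, n = 2). It was 2.57-fold higher after risperidone (log2 fold change 1.36, SE 0.0741, edgeR's adjusted p = 1.26e-07) and stayed between 1.32 and 1.40 on the log2 scale with each library left out. Ifit3 was much lower, at 0.78, 0.85, 1.37 and 1.23 FPKM, with a log2 fold change of 0.78 (SE 0.268, edgeR's adjusted p = 0.0243). Without DMSO replicate 1, DMSO replicate 2 or risperidone replicate 1 the log2 fold change of Ifit3 was 0.73, 0.83 and 0.71, with adjusted p values from edgeR of 0.119, 0.0808 and 0.0801, and DESeq2 gave an adjusted p of 0.152. Ifit1 lay under the limit for testing, at 1.32, 0.96, 0.59 and 0.72 FPKM, and was lower in both risperidone libraries. Without a limit its log2 fold change was -0.70 (95% interval from -1.40 to -0.00, edgeR's adjusted p = 0.109), so it was not called. The counts of Ifit3 were not whole in 3 libraries and those of Ifit1 in 2, and the near-identical copies in this family make both values uncertain.

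Bst2, which encodes tetherin, a membrane protein that holds budding virus particles at the cell surface, was the most abundant of the effectors. It was at 21.97 and 21.09 FPKM with DMSO and at 35.55 and 38.28 FPKM with risperidone. The increase of 0.88 on the log2 scale (SE 0.0929, edgeR's adjusted p = 1.19e-05) was 0.83 without risperidone replicate 2. Isg15, a ubiquitin-like protein that is attached to other proteins, had 21, 37, 16 and 14 counts. Its DMSO libraries differed more from each other than the lower of them did from risperidone, and the log2 fold change of -0.85 was not called (95% interval from -1.67 to -0.04, edgeR's adjusted p = 0.0633). Without DMSO replicate 1 it was -1.22 (edgeR's adjusted p = 0.0164), and without DMSO replicate 2 it was -0.37. Isg15 was also called lower with library size alone (adjusted p = 0.0432 from edgeR), with length and GC offsets (0.0269 from edgeR) and in all 3 limma fits (adjusted p from 0.00642 to 0.0269). Trim25, a ubiquitin ligase that acts on RIG-I, was at 16.71, 15.82, 15.27 and 15.45 FPKM. Its log2 fold change was 0.01, with a 95% interval from -0.11 to 0.14, and its sign changed under several alternatives, among them leaving out DMSO replicate 2 (-0.028) and limma on log2(TPM + 1), where it was -0.22 and called lower (limma's adjusted p = 0.0209). Ifi35, an interferon-induced leucine zipper protein, was at 17.40, 17.29, 19.58 and 17.61 FPKM and had a log2 fold change of 0.20 (edgeR's adjusted p = 0.0552), or 0.28 with an adjusted p of 0.0194 without risperidone replicate 2. The remaining effectors lay under the limit in addition to Ifit1. Oas1a had 24, 22.48, 14.77 and 11.39 counts, Usp18 had 20, 26, 18 and 17, Xaf1 had 24, 17, 16 and 18, and Rsad2, which encodes the antiviral enzyme viperin, had 24, 21, 22 and 20. Without a limit none of these 4 was called by edgeR, with adjusted p values from 0.185 for Oas1a to 0.987 for Rsad2 and unadjusted values from 0.0965 to 0.983, so 0 of the 4 had an unadjusted p under 0.05.

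B2m, H2-D1, Tapbp and H2-K1 of the MHC class I pathway were the most abundant members by mean FPKM. Of 7 genes 6 were tested, and B2m, Tapbp and Tap2 rose, H2-K1 fell, and H2-D1 and Tap1 were not called. Of all genes tested, 32.1% were higher and 32.2% lower. The median log2 fold change was 0.12, and the summed level of the class was 1412 and 1413 FPKM with DMSO and 1585 and 1510 FPKM with risperidone. Without B2m, the other 6 genes summed to 557 and 552 FPKM with DMSO and to 541 and 513 FPKM with risperidone. Among these 6, Tapbp and Tap2 rose in mean FPKM, while H2-K1, H2-D1, Tap1 and Nlrc5 fell. The sums carry no TMM scaling, and on log2(FPKM + 1) the median of all genes was itself -0.084. With limma on log2(TPM + 1) none of the 3 increases was called, with log2 fold changes of 0.11 for B2m, 0.07 for Tapbp and -0.018 for Tap2, and H2-D1 (-0.24) was called lower. On that scale the median of all genes was -0.22, and relative to it the values were 0.33 for B2m, 0.29 for Tapbp, 0.21 for Tap2 and -0.016 for H2-D1.

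B2m (NCBI Gene 12010), the light chain shared by all class I molecules, was at 855.17, 861.72, 1043.86 and 996.55 FPKM. It was higher in both risperidone libraries, with a log2 fold change of 0.35 (SE 0.0488, edgeR's adjusted p = 8.77e-05). Without risperidone replicate 2, the library with kidney transcripts, the log2 fold change of B2m was 0.39. The heavy chains behaved differently. H2-K1 was at 124.55, 125.76, 96.39 and 94.60 FPKM and fell by 0.29 on the log2 scale (SE 0.0450, edgeR's adjusted p = 0.000216). H2-D1 was at 279.08, 288.35, 271.50 and 259.10 FPKM, and its log2 fold change was 0.0010 with a 95% interval from -0.11 to 0.11, and its sign changed under several alternatives, among them leaving out DMSO replicate 1 (-0.021) or risperidone replicate 1 (-0.038). Because heavy chain genes are close in sequence, their reads can be divided between them, and the deposited counts of both were not whole in any of the 4 libraries. The ratio of H2-K1 to H2-D1 counts was 0.432 and 0.422 with DMSO and 0.345 and 0.355 with risperidone. Their sum, a comparison chosen after the data were seen, had a log2 fold change of -0.08 (SE 0.0490) and was not called (edgeR's adjusted p = 0.177).

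Tap1 and Tap2 encode the subunits of the transporter that carries peptides into the endoplasmic reticulum, and Tapbp encodes tapasin, which links this transporter to the class I molecule. Tapbp was at 135.21, 118.84, 153.67 and 140.62 FPKM, with a log2 fold change of 0.31 (SE 0.0680, edgeR's adjusted p = 0.00218). Tap2 was at 12.37, 12.07, 13.64 and 13.03 FPKM, with a log2 fold change of 0.22 (SE 0.0626, edgeR's adjusted p = 0.00930). Its adjusted p from edgeR was 0.0617 without DMSO replicate 2 and 0.0723 without risperidone replicate 1, where the log2 fold change was 0.20 and 0.18, and DESeq2 gave 0.128. For Tap1 the values were 5.66, 5.88, 5.39 and 5.50 FPKM and the log2 fold change was 0.01, with a 95% interval from -0.21 to 0.24 and a sign that changed under several alternatives, among them leaving out DMSO replicate 1 (-0.013). Nlrc5, the transactivator of MHC class I genes, lay under the limit with 49, 74, 26 and 37 counts. Without a limit its log2 fold change was -0.87 (95% interval from -1.66 to -0.09, edgeR's adjusted p = 0.0836), and both risperidone libraries lay below both DMSO libraries. By mean level, B2m was followed by H2-D1 (275 FPKM), Tapbp (137 FPKM), H2-K1 (110 FPKM), Tap2 (12.8 FPKM), Tap1 (5.61 FPKM) and Nlrc5 (0.412 FPKM). Tapbp and H2-K1 overlapped in the DMSO libraries, and no other neighbours in this order did within a treatment.

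Other genes of the same pathways were read from lists written from general knowledge. Of 9 signalling partners 4 were lower and 0 higher, where 32.2% and 32.1% of all genes tested were, and those that fell included Socs3 (log2 fold change -0.87), Jak1 (-0.35) and Ptpn11 (-0.29, named after its value was seen). Jak1, a kinase bound to the receptors of both interferon types, was at 94.46 and 97.45 FPKM with DMSO and at 67.67 and 71.34 FPKM with risperidone. Socs3, a feedback inhibitor of JAK signalling, went from 4.66 ± 0.0424 to 2.38 ± 0.120 FPKM (SD, n = 2). Jak2 (-0.03) and Tyk2 (0.02), further kinases of these receptors named after their values were seen, were not called. Of 10 interferon genes only Ifne was analysed here, with 0 counts in both DMSO libraries, 2 in each risperidone library and no test.

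Among the genes that sense nucleic acids or activate interferon regulatory factors, 7 of the 12 tested were lower and 1 was higher, beside 32.2% and 32.1% of all genes tested. The largest changes were those of Tmem173, which encodes the adaptor STING (log2 fold change -1.44, SE 0.171), Myd88, the adaptor of most Toll-like receptors (-1.37, SE 0.0643), and Tlr3, a receptor for double-stranded RNA (-1.22, SE 0.134). Ticam1, the adaptor of Tlr3, moved the other way, from 16.61 and 16.81 FPKM to 28.51 and 27.78 FPKM, a log2 fold change of 0.85 (SE 0.0626). Ifi44 and 36 further interferon-induced genes were tested, and of these 37 genes 22 were lower and 3 were higher, with a median log2 fold change of -0.42, and 5 of the 37 reached the limit in only 1 treatment. The largest changes were decreases of the GTPase genes Irgm2 (-2.03, SE 0.212) and Gbp9 (-1.72, SE 0.193) and of Ifi44 (-1.67, SE 0.326). The increases were those of the nuclease gene Isg20 (1.43), the nucleotide hydrolase gene Samhd1 (1.13) and Pml (0.37), of which Pml was named after its value was seen.

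In the list of other MHC class I and antigen processing genes, 6 of 14 were lower (42.9%) and 5 were higher (35.7%), near the 32.2% and 32.1% of all genes tested. Tapbpl, a relative of tapasin, fell by 1.41 on the log2 scale and the immunoproteasome subunit Psmb10 by 1.07, while Cd1d1, which presents lipids, had a log2 fold change of -0.94. Calr, the most abundant of the chaperones that load class I molecules and named after its value was seen, rose from 729 ± 2.32 to 1199 ± 87.4 FPKM (SD, n = 2). Erap1, which trims peptides and was likewise named after its value was seen, had a log2 fold change of -0.75. Of 6 MHC class II genes tested, Rfxank (-0.93), H2-DMa (-0.87) and Rfxap (-0.44) were lower and 0 were higher, so that 3 of 6 were called against 64.3% of all genes tested.

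**Figure D3:**
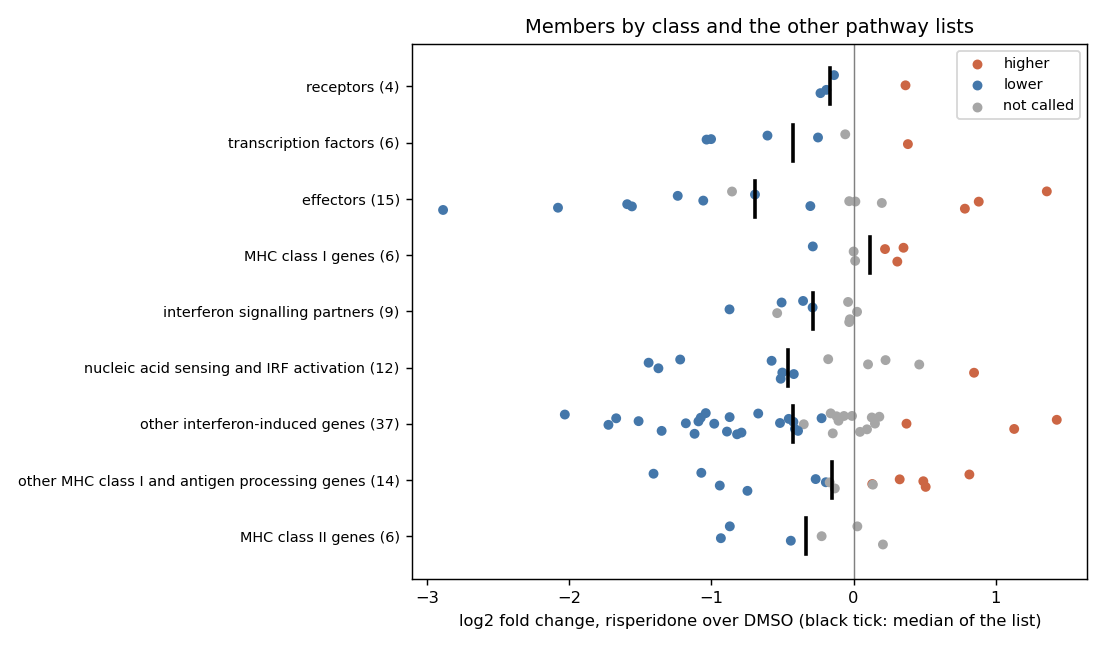
Log2 fold change of risperidone over DMSO for each tested gene of the 4 member classes and of 5 other pathway lists, with the number tested in brackets and a black tick for the median of each list. The median is below 0 in every list except the MHC class I genes, where it is 0.12.

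The GTPase families to which Gbp2 and Gbp3 belong were grouped after the values were seen, with no test of the group. The guanylate-binding and immunity-related GTPases numbered 13 among the lists. Of these, 8 were tested and all 8 were lower, beside 32.2% of all genes tested. Because 4 of the 8 reached 1 FPKM only with DMSO, where a decrease is favoured, the count is a description only. The other 5 lay under the limit. Without a limit, where 19.3% of all genes were lower, Iigp1 (69, 55, 9 and 20 counts), Gbp4 (34, 32, 4 and 5 counts) and Gbp5 (15, 14, 1 and 3 counts) were lower at an adjusted p under 0.05 from edgeR. Tgtp1 and Tgtp2, with 5 or fewer counts in every library, were not called.

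**Figure D4:**
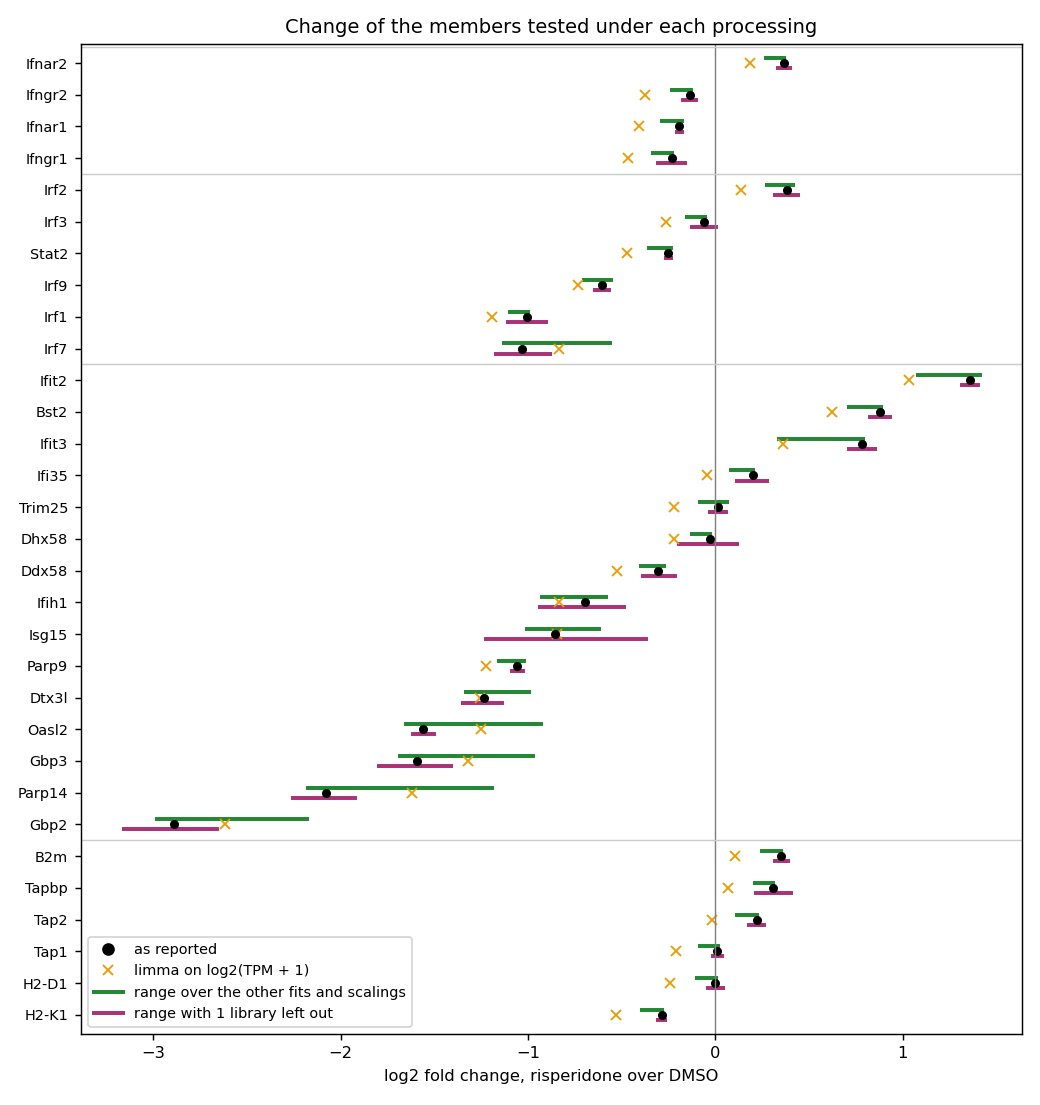
Log2 fold change of each tested member as reported (black), its range with each library left out (purple), its range over the other fits and scalings (green) and its value from limma on log2(TPM + 1) (orange cross). Bars far from 0, such as those of Gbp2, Parp14, Irf1, Ifit2 and Bst2, stay on their side, whereas Trim25, H2-D1, Tap1, Tap2 and Ifi35 fall on the other side of 0 on the TPM scale.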

How the data were processed

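RNA from 3T3-L1 cells, differentiated per the study's methods and pooled from 3 cultures per library, was sequenced by the authors on MGISEQ-2000 in 2 libraries per treatment. The submitters' processing notes name Bowtie2, RSEM, DESeq2 and GRCm38.p6 without versions or roles. The deposited table holds an estimated count (expected count) per gene and library, not normalized, whole for 91.2% to 91.7% of values within 0.001, so that reads could be divided between genes. It also holds the FPKM and TPM values that the authors deposited. Strand was not stated.

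Counts were rounded and tested with edgeR 4.0.16 under R 4.3.3 (TMM, quasi-likelihood F-test, two-sided, Benjamini-Hochberg over all genes tested), where the risperidone libraries entered against DMSO without covariates. Each SE was taken as the size of the change over the root of its F statistic. FPKM means carry SD over 2 libraries. The count of 31 tested members rests on a mean of at least 1 FPKM. Every member was named, with up to 3 called genes of the largest change from each other list among the genes reported. Further genes were named outside this rule, among them those marked as named after their values were seen. Members and lists were chosen with earlier results of these data known.

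Alternatives were no limit, a mean of 5 FPKM, a replicate term, DESeq2 1.42.0, RLE factors, library size alone, offsets for transcript length and GC content (GENCODE M21, mgcv 1.9.3), limma 3.58.1 on log2(FPKM + 1), log2(FPKM + 0.1) and log2(TPM + 1), a log2 fold change of at least 1, and each library left out. The fits were also run on simulated data with 200 changed genes, balanced in direction, whereas 6590 genes were called here. That simulation therefore does not test how the calls depend on scaling. Averaged columns were not used, and the values of 1 listed gene are not reported here.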

Additional observations from a re-analysis of the deposited data

How the results depend on the processing

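Under 14 alternatives, 14 of the 24 called members kept their direction and call wherever they were tested. Of 424 member and alternative pairs, 358 kept both and 27 changed sign. Calls were lost in 32 pairs and gained in 10, of which 6 were for Isg15, and these include Tap2 (lost) and Trim25 and H2-D1 (called lower) on the TPM scale, which also changed sign. Members called higher numbered 8, or 3 with limma on log2(TPM + 1) and 1 at a log2 fold change of at least 1. Members called lower numbered 16, or 9 at a mean of 5 FPKM and 8 at a log2 fold change of -1 or less. The members' median of -0.19 became -0.024 at a mean of 5 FPKM, -0.28 with library size alone, and -0.26, -0.27 and -0.41 with limma on log2(FPKM + 1), log2(FPKM + 0.1) and log2(TPM + 1). The TPM scale moved the median of all genes to -0.22, and relative to it the members' median was -0.18. On that scale Trim25 (-0.22), H2-D1 (-0.24), Tap1 (-0.21), Ifi35 (-0.044) and Tap2 (-0.018) changed sign. Trim25, H2-D1 and Tap1 also turned negative with library size alone (-0.080, -0.093 and -0.082), log2(FPKM + 1) (-0.077, -0.097 and -0.071), log2(FPKM + 0.1) (-0.082, -0.097 and -0.082) and a mean of 5 FPKM (-0.012, -0.024 and -0.013). H2-D1 and Tap1 did so with length and GC offsets (-0.083 and -0.010), and H2-D1 with no limit (-0.00081). Apart from the construction of each scale, the cause was not tested. With each library left out, 6 to 9 members were higher and 13 to 15 lower, with medians from -0.19 to -0.18. Signs then changed for Irf3 (-0.12 to 0.0046), Dhx58 (-0.19 to 0.12), Trim25 (-0.028 to 0.056), H2-D1 (-0.038 to 0.040) and Tap1 (-0.013 to 0.037).

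The treatments share replicate numbers, but with 2 pairs these do not establish a pairing. The differences between replicates 1 and 2 correlated at -0.123 between treatments across genes. With the replicate block, 8 members were higher and 15 lower, the median was -0.19, and 3292 genes were higher and 3321 lower. With the crossed pairing, added after the data were seen, 8 members were higher and 16 lower. Summing H2-K1 and H2-D1, also added later, gave -0.079, against 0.0010 for H2-D1 alone. Low counts limit the values of Irf7, Ifit3, Isg15 and the 6 members under the limit.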

Other observations

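Classical MHC class II genes, which professional antigen-presenting cells express, lay under the limit for testing and had reads mainly in risperidone replicate 2. H2-Ab1 had 0, 0, 1 and 16 counts, H2-Aa had 0, 1, 0 and 15 counts, and H2-Eb1 had 0, 0, 0 and 6 counts. A count of 0 allows up to 3 counts in a library, or between 0.183 and 0.189 CPM, for counting error only. The same library held the kidney transcripts, with 1048 counts of Kap against 16 or fewer in the others and 681 counts of Slc34a1 against 5 or fewer. Ctss had 6 counts in it and 0 in the others. Whether these reads and those of the kidney genes share a source was not tested. Ciita, the transactivator of MHC class II genes, had 4, 1, 4 and 0 counts.

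Without risperidone replicate 2, 9 members were called higher and 15 lower. The change against the full comparison lay in Ifi35, which gained a call, and in Ifngr2, which lost its call.

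Ifitm2 and Ifitm3, small membrane proteins that hinder virus entry and that were named after their values were seen, were the most abundant of the other interferon-induced genes, at 899 ± 36.4 and 697 ± 13.1 FPKM with DMSO and at 406 ± 19.7 and 407 ± 21.5 FPKM with risperidone (SD, n = 2). Their log2 fold changes were -1.04 (SE 0.0531) and -0.67 (SE 0.0508), and the libraries of the treatments did not overlap. The chemokine genes Cxcl9 and Cxcl10, common readouts of interferon exposure, had at most 1 and 4 counts in a library. Cmpk2 had 14, 9, 2 and 2 counts, and without a limit its log2 fold change was -2.36 (edgeR's adjusted p = 0.0391).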
